A study of Mus musculus with 4 samples.

Results

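Collagen chain genes code for the alpha chains that assemble, 3 at a time, into the triple helices of the extracellular matrix. They were followed here in the colon of wildtype mice and of mice that lack Pla2g10, which codes for a secreted phospholipase A2 (group X). The genes were chosen by name (Col, the number of the collagen type, a, the number of the chain) among probes other than controls, and were kept where at least 1 of the 4 arrays marked the probe as well above background. The name matched 43 genes on 76 spots, and 35 of them, on 57 spots of 48 probes, were kept of 22162 genes measured in all. Of these 35, 8 were fibrillar chains, 8 were chains of basement membrane collagens and 19 belonged to other types.

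The series holds 4 single-colour arrays, 1 for each pool of RNA, and each pool was mixed from the colons of 3 mice. The mice were of the C57BL/6 strain and were either wildtype (WT) or Pla2g10 knockout, called X-KO in the labels and KO here. They were naive, or had drunk 1% (w/v) dextran sulfate sodium (DSS), a polymer that damages the epithelium of the colon and causes colitis, and were taken at day 7. The labels describe 8-week-old mice at housing and 9 weeks and male for the samples, with the age and sex fields apparently exchanged. All 4 groups were of the same strain, tissue and labelled age. How the knockout allele was made and which part of Pla2g10 it removes are not given in the sources used here, and with pooled animals the spread between mice cannot be seen.

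Fibrillar collagens (types I, III and V, with the later described XXIV and XXVII) form the cable-like fibres that give connective tissue its strength, and in the gut they are made mainly by fibroblasts and smooth muscle cells. Type IV collagen forms the sheet-like network of basement membranes under epithelium and around vessels and muscle, and types XV and XVIII are proteoglycans bound to those membranes. The remaining types link or decorate these structures: type VI makes beaded filaments, type VII anchors epithelium to the stroma, type XVII spans the epithelial cell membrane, and the FACIT types (such as XII, XIV, XVI and XX) attach to the surface of fibres. Newly made chains are hydroxylated, folded and trimmed by a dedicated set of enzymes and chaperones before they are cross-linked outside the cell.

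Promoter sequences were matched by symbol to RefSeq (GRCm38.p6), which gave 32 windows, each the 250 bases upstream of a transcript start, for 29 of the 35 genes. Those of 5 genes are shown because the results below turn on them: Col1a2 and Col3a1 as major fibrillar chains, Col4a5 and Col4a6 as a head-to-head pair, and Col7a1. Each runs 5′ to 3′ on the strand of its gene, and capitals mark matches on either strand to the core letters of 4 promoter elements. These were TATAA for the box of that name, CCAAT for the element bound by factor NF-Y, GGGCGG for the GC element bound by Sp1, and TGANTCA (N is any base) for an AP-1 site.
Col1a2 (chr6:4505368-4505617, plus strand): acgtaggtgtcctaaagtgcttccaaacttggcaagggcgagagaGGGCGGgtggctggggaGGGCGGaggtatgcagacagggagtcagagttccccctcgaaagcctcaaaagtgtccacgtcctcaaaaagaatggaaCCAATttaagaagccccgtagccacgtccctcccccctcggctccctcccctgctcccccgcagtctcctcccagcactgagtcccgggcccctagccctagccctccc
Col3a1 (chr1:45311288-45311537, plus strand): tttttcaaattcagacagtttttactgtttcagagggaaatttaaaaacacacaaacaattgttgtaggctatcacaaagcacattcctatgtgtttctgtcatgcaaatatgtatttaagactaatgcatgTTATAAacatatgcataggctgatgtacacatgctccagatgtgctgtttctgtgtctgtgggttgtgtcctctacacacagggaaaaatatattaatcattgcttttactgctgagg
Col4a5 (chrX:141475169-141475418, plus strand): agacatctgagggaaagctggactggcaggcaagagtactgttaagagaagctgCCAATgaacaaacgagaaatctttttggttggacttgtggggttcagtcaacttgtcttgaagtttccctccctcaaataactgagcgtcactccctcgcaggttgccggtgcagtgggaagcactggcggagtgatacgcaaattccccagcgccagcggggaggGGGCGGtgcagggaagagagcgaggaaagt
Col4a6 (chrX:141474077-141474326, minus strand): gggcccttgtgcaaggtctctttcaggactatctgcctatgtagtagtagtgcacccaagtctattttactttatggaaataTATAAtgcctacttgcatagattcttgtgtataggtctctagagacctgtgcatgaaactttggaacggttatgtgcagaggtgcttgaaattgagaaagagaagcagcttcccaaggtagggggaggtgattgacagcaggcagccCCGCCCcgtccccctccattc
Col7a1 (chr9:108953336-108953585, plus strand): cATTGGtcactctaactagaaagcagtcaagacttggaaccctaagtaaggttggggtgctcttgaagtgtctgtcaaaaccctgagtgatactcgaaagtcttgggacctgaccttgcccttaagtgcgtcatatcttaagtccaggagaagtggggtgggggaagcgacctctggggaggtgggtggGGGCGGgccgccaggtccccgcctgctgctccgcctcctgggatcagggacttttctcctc

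The Col1a2 window held 2 GGGCGG matches and 1 CCAAT match, and the Col3a1 window held a TATAA match on each strand that share letters. The windows of Col4a5 and Col7a1 each held 1 CCAAT and 1 GGGCGG match, and that of Col4a6 held 1 TATAA and 1 GGGCGG match. Over all member windows, GGGCGG was found in 19 of 32 (59.4%), against 32.7% of the 32851 windows in the RefSeq table. CCAAT was in 12 of the member windows (37.5%, against 33.8%), TATAA in 4 (12.5%, against 22.8%) and TGANTCA in 1, that of Col6a1 (3.13%, against 6.75%). These shares describe letters in a window and were not tested. Col4a5 and Col4a6 lie head to head on chromosome X, with their 300-base windows (250 bases before the start and 50 after) 842 bases apart. Col4a1 and Col4a2 also lie head to head, on chromosome 8, and there the windows overlap by 78 bases.

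All values are relative signals, the processed spot intensity divided by the 75th percentile of all spots of the array, which therefore has the value 1. Levels are compared between pools for the same probe and never between genes. Pla2g10 itself had a relative signal of 15.8 (WT) and 1.69 (KO) in naive mice and 19.0 (WT) and 0.993 (KO) with DSS, so the KO pools were low as labelled (log2 KO over WT of -3.22 and -4.26). Between 67.7% and 70.4% of spots were well above background on each array. The SD of repeat spots of the same probe was 0.0618 to 0.0718 on the log2 scale, and the SD between probes of the same gene in a ratio was 0.0903 to 0.148, over 4562 genes with several probes. Both cover noise within arrays and not the spread between mice. With 1 array per group, a ratio between 2 pools has no replicate check and no p-value, and a change of at least 2-fold in either direction is used to name genes. In whole tissue, fewer cells of a type and less RNA per cell cannot be told apart.

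Across the 35 genes, DSS went with lower collagen signals in WT and with higher signals of the main fibrillar chains in KO. In WT, 30 of 35 genes were below 0 on the log2 DSS over naive scale (27 of 35 with arrays scaled by their median), with a median of -0.46 against -0.02 over all genes. Of the members, 1 was at least 2-fold higher in WT DSS (2.86%), where 3.44% of all genes were, and 7 were at least 2-fold lower (20%), where 5.13% of all genes were. In KO, 20 of 35 genes were above 0, with a median of 0.15 against -0.13 over all genes. There 7 members were at least 2-fold higher (20%, against 5.67% of all genes) and 0 were at least 2-fold lower (against 5% of all genes). The 29 genes measured well above background on all 4 arrays had a median of -0.46 for the WT response and of 0.21 for the KO response. With the 8 undetected genes added, the KO median was -0.015.

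The genotypes were close in naive mice and apart after DSS. In naive mice 0 members were at least 2-fold higher in KO, where 1.13% of all genes were, and 0 were at least 2-fold lower, where 1.04% of all genes were. The members were nonetheless below 0 in 28 of 35 cases, with a median of -0.23 against 0.02 over all genes. After DSS, 29 of 35 members were higher in KO than in WT, with a median of 0.79 against -0.09 over all genes. There 7 members were at least 2-fold higher (20%, against 5.06% of all genes) and 1 was at least 2-fold lower (2.86%, against 2.2% of all genes). Over the 29 genes measured on all 4 arrays, that median was 0.82, with 25 above 0. With dim readings set to their bounds, the medians over all members were -0.44 and 0.15 for DSS in WT and KO, and -0.23 and 0.76 for KO over WT without and with DSS. The comparisons share pools, the WT DSS pool being the upper term of one and the lower term of another, so their values are set side by side and not treated as separate evidence.

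**Figure D1:**
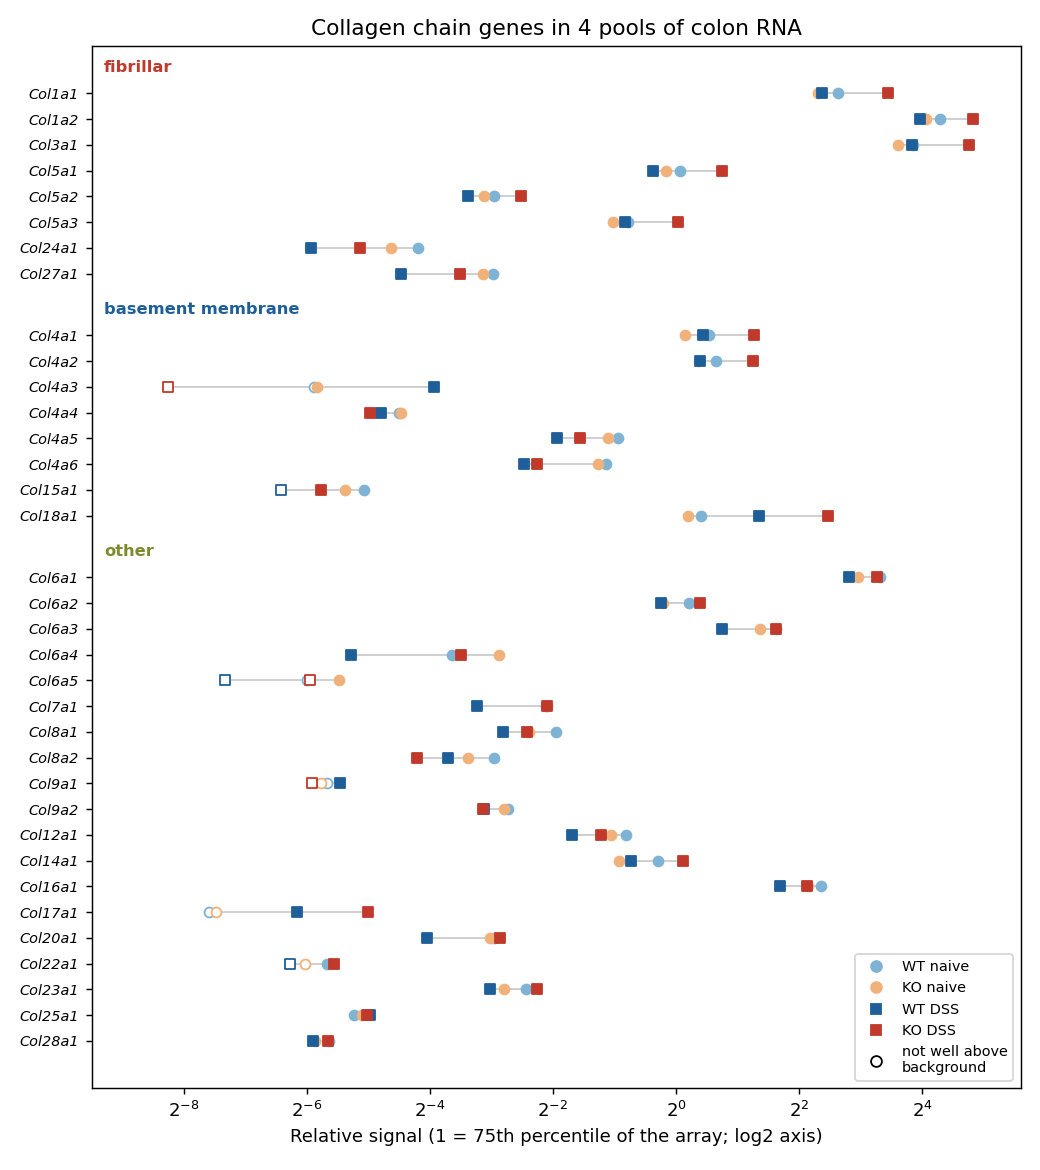
Relative signal (log2 axis, 1 = 75th percentile of the array) of the 35 collagen chain genes in each of the 4 pools, grouped by class. Circles are naive and squares DSS pools, in lighter and darker blue for WT and orange and red for KO, open symbols are not well above background, and the red square lies to the right of the dark blue one for all 8 fibrillar chains.

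Fibrillar chains were the class with the most uniform pattern across the pools. The class median of the DSS response was -0.37 in WT and 0.84 in KO. The class median of KO over WT was -0.23 without DSS and 0.90 after it. All 8 measured chains were higher in KO DSS than in WT DSS, with log2 ratios from 0.79 to 1.13, and all 8 were lower in KO naive than in WT naive, with log2 ratios from -0.44 to -0.17. These 2 counts were the same under each of the 5 scalings tried, while the count below 0 in WT DSS over naive was 8 of 8 under 4 of them and 6 of 8 under median scaling. The summed relative signal of the 8 chains was 42.1 (WT) and 35.5 (KO) in naive mice and 36.6 (WT) and 69.5 (KO) with DSS.

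Col1a1 and Col1a2, which together make type I collagen, the main collagen of fibrous tissue, were highest in KO DSS. Col1a1 (probe at chr11:94813115-94813174, mm9) had a relative signal of 6.22 (WT) and 4.93 (KO) in naive mice and 5.20 (WT) and 10.9 (KO) with DSS. It was 2.20-fold higher in KO DSS than in KO naive and 2.09-fold higher than in WT DSS, while the WT pools differed by a log2 ratio of -0.26. Col1a2 (chr6:4490619-4490678, mm9) read 19.5, 16.8, 15.7 and 28.4 in the same order of pools. Its ratios stayed under 2-fold, at 1.70-fold for KO DSS over KO naive and 1.82-fold for KO DSS over WT DSS. With arrays scaled by their median instead, Col1a1 no longer reached 2-fold over WT DSS.

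Col3a1, the type III chain that is laid down with type I in healing tissue, had relative signals of 14.4 (WT) and 12.1 (KO) in naive mice and 14.2 (WT) and 27.1 (KO) with DSS. The WT pools were nearly level (log2 ratio -0.016, and above 0 with median scaling), and KO DSS was 2.24-fold above KO naive and 1.91-fold above WT DSS.

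The type V chains, which regulate the diameter of type I fibres, were also highest in KO DSS. Col5a1 read 1.04 (WT) and 0.892 (KO) in naive mice and 0.768 (WT) and 1.68 (KO) with DSS, and was 2.18-fold higher in KO DSS than in WT DSS. Col5a2 read 0.129, 0.115, 0.0964 and 0.174, with no ratio of 2-fold (1.80-fold for KO over WT after DSS). Col5a3 read 0.584, 0.494, 0.561 and 1.02, and was 2.07-fold higher in KO DSS than in KO naive.

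Col24a1 and Col27a1, 2 fibrillar chains best known from cartilage and bone, differed from the others in their response to DSS. Both were lower after DSS in each genotype, and more so in WT. Col24a1 (chr3:145214473-145214532, mm9) read 0.0545 (WT) and 0.0401 (KO) in naive mice and 0.0163 (WT) and 0.0283 (KO) with DSS, a DSS response of 3.34-fold downward in WT and 1.42-fold in KO. Col27a1 (chr4:62995485-62995544, mm9) read 0.127, 0.113, 0.0451 and 0.0880, 2.83-fold downward in WT and 1.29-fold in KO. With normexp background correction the WT ratio of Col24a1 no longer reached 2-fold, while that of Col27a1 did.

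**Figure D2:**
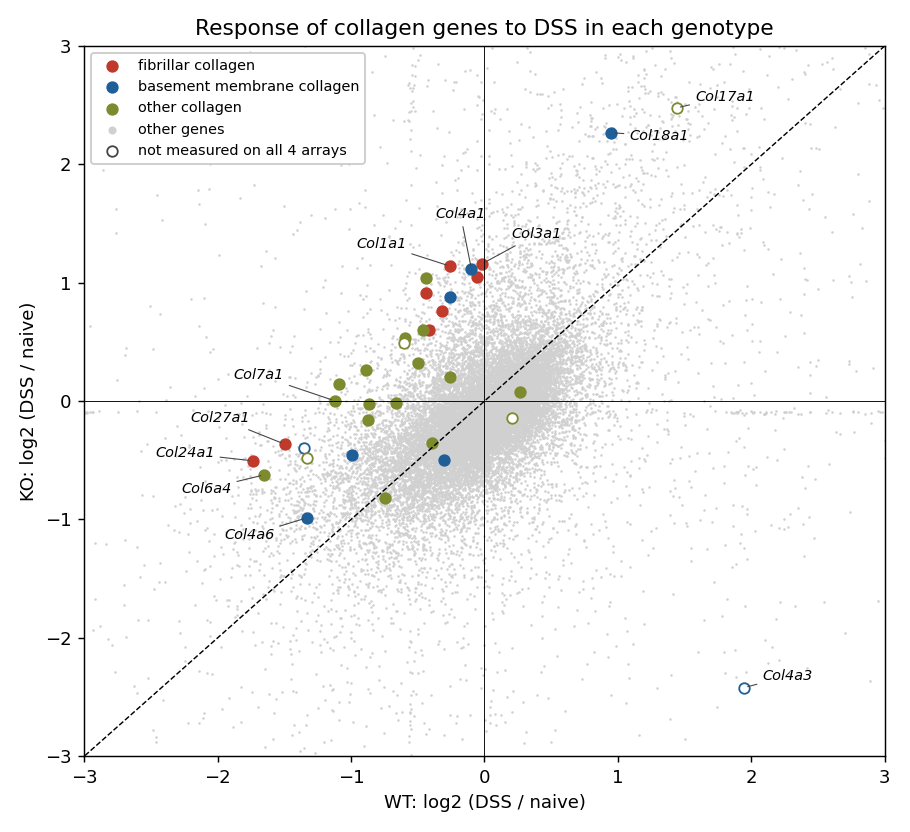
Log2 ratio of DSS over naive in WT (x axis) against KO (y axis), with collagen genes coloured by class over all other genes in grey and the line of equal response dashed. Open points are genes not measured on all 4 arrays, and Col1a1, Col3a1 and Col4a1 lie at -0.26, -0.016 and -0.10 in WT and at 1.14, 1.16 and 1.12 in KO.

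Basement membrane collagens did not move as a block. Their class medians were -0.28 for DSS over naive in WT and -0.43 in KO, -0.18 for naive KO over WT and 0.52 after DSS. The KO value turned to 0.21 over the 6 genes measured on all 4 arrays. Between the DSS pools, chains measured on all 4 arrays spread from Col4a4, with a log2 ratio of -0.17, to Col18a1, at 1.12.

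Col4a1 and Col4a2, the chains of the type IV network found in almost every basement membrane, read much like the fibrillar chains. Col4a1 (chr8:11199009-11199068, mm9) had relative signals of 1.46 (WT) and 1.11 (KO) in naive mice and 1.36 (WT) and 2.41 (KO) with DSS, and was 2.17-fold higher in KO DSS than in KO naive. Its probe is printed on 10 spots of each array. These read from 2.26 to 2.57 in KO DSS and from 1.25 to 1.46 in WT DSS. The naive spots read from 1.35 to 1.55 in WT and from 1.03 to 1.19 in KO. All 10 spots of an array took up the same pooled RNA, so these ranges show only how closely repeat spots read. Whether they overlap cannot tell if the genotypes differ. Col4a2 read 1.57, 1.30, 1.31 and 2.38, 1.84-fold higher in KO DSS than in KO naive.

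Col4a5 and Col4a6, which join in the basement membranes of smooth muscle and some epithelia, were lower after DSS in both genotypes. Col4a5 (chrX:138123547-138123606, mm9) read 0.517 (WT) and 0.464 (KO) in naive mice and 0.261 (WT) and 0.338 (KO) with DSS, which is 1.99-fold lower in WT and just under the threshold. Col4a6 (chrX:137599990-137600049, mm9) read 0.455, 0.415, 0.181 and 0.209, lower by 2.51-fold in WT and by 1.98-fold in KO. The other Col4a6 probe (chrX:137601433-137601491, mm9) did not follow, with 0.135, 0.124, 0.124 and 0.114, a log2 ratio of -0.12 in each genotype. The probes of this gene thus disagree, and with their mean Col4a6 was not 2-fold lower in WT.

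Col4a3 and Col4a4, the chains of the kidney and lung type IV network, were dim. Col4a3 (chr1:82717775-82717834, mm9) was well above background in KO naive (0.0175) and WT DSS (0.0655) and not in WT naive (0.0170) or KO DSS (0.00326). It was at least 3.86-fold higher in WT DSS than in WT naive and at least 4.63-fold higher in WT DSS than in KO DSS. It was the 1 member higher by 2-fold in WT DSS and the 1 member lower by 2-fold in KO after DSS, and it rests on 1 bright reading. Col4a4 read 0.0443, 0.0451, 0.0360 and 0.0319, with no ratio of 2-fold.

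Col18a1, whose C-terminal fragment is endostatin, was the collagen with the highest measured response on all 4 arrays. It read 1.32 (WT) and 1.15 (KO) in naive mice and 2.55 (WT) and 5.52 (KO) with DSS (chr10:76514926-76514985, mm9). Its DSS response was 1.93-fold upward in WT and 4.81-fold in KO, and it was 2.17-fold higher in KO DSS than in WT DSS. A second probe (chr10:76515790-76515849, mm9) gave log2 ratios of 0.68 in WT, 2.21 in KO and 1.31 between the DSS pools, against 0.95, 2.27 and 1.12 for the first. Col15a1, the related proteoglycan chain, went the other way in WT, with 0.0296, 0.0241, 0.0116 and 0.0183. It was at least 2.55-fold lower in WT DSS, where it was not well above background, and normexp correction removed that call.

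**Figure D3:**
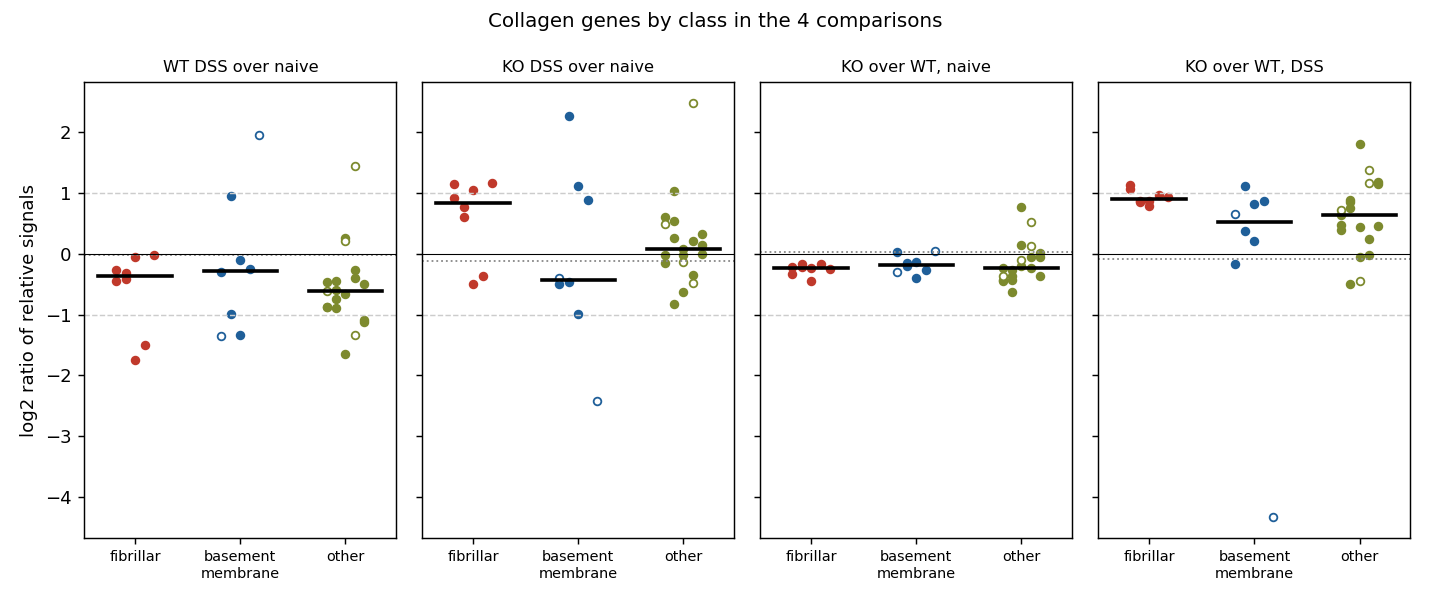
Log2 ratios of the collagen genes by class in the 4 comparisons, 1 point per gene, with class medians as black bars, dotted lines at the median of all genes and dashed lines at 2-fold. Open points were not well above background on all 4 arrays; fibrillar points sit between 0.79 and 1.13 in KO over WT after DSS and between -0.44 and -0.17 in naive mice.

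The other 19 genes had class medians of -0.61 for DSS over naive in WT and 0.08 in KO, and of -0.23 for KO over WT without DSS and 0.63 with it. Type VI chains are the parts of beaded filaments between cells and fibres, and 3 of the 5 measured, Col6a1, Col6a2 and Col6a3, were lower after DSS in WT and slightly higher in KO. Col6a1 read 9.93 (WT) and 7.74 (KO) in naive mice and 7.03 (WT) and 9.68 (KO) with DSS. Col6a2 read 1.16, 0.865, 0.844 and 1.31, and a second, dimmer probe had a log2 ratio of 0.30 between the DSS pools where the first had 0.63. That second probe was lower after DSS in both genotypes, with log2 ratios of -0.42 in WT and -0.07 in KO. Col6a3 read 3.10, 2.58, 1.68 and 3.10, level between WT naive and KO DSS and 1.85-fold lower in WT DSS than in either. No ratio of these 3 chains reached 2-fold.

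Col6a4, a further type VI chain, was the member with the largest KO over WT ratio after DSS. It read 0.0802 (WT) and 0.137 (KO) in naive mice and 0.0255 (WT) and 0.0887 (KO) with DSS (chr9:105893016-105893075, mm9). It was 3.14-fold lower after DSS in WT, 1.54-fold lower in KO and 3.47-fold higher in KO DSS than in WT DSS. It was also the only member past 1.5-fold higher in KO naive, at 1.70-fold, and with normexp correction its WT ratio no longer reached 2-fold. Col6a5 was well above background only in KO naive, at 0.0225, and has no ratio between the DSS pools.

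Col7a1 and Col20a1 shared a pattern in which WT DSS alone was low. Col7a1, the anchoring fibril chain (chr9:108886861-108886920, mm9), read 0.231 (WT) and 0.234 (KO) in naive mice and 0.106 (WT) and 0.235 (KO) with DSS. The WT DSS pool was 2.18-fold below WT naive and 2.21-fold below KO DSS, while KO naive was 1.01-fold of WT naive and KO DSS was 1.00-fold of KO naive. Col20a1, a FACIT chain (chr2:180752070-180752129, mm9), read 0.129, 0.124, 0.0605 and 0.137, 2.12-fold lower in WT and 2.26-fold higher in KO than in WT after DSS. A second Col20a1 probe gave log2 ratios of -0.96 and 0.97 for these comparisons, against -1.09 and 1.18. Under normexp correction neither gene reached 2-fold in either comparison. In WT neither did with arrays scaled by their median, nor did Col20a1 with quantile normalization.

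Col14a1, a FACIT chain of fibre surfaces in stroma, had the widest gap between the DSS responses of the genotypes among members measured on all 4 arrays. It read 0.816 (WT) and 0.525 (KO) in naive mice and 0.601 (WT) and 1.08 (KO) with DSS (chr15:55352264-55352323, mm9). Its log2 response was -0.44 in WT and 1.04 in KO, a difference of 1.48, followed by Col1a1 (1.40) and Col5a1 (1.35). Col4a3, which was dim in 2 pools, had a difference of the opposite sign that has no exact value. A second Col14a1 probe had responses of -0.31 and 0.94, so its mean over probes fell short of 2-fold in KO. Col14a1 was also the only member past 1.5-fold lower in KO naive, at 1.55-fold.

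Col17a1, the transmembrane collagen of epithelial anchoring junctions, lay below that level in both naive pools (0.00516 in WT and 0.00560 in KO were not well above background). It read 0.0140 in WT DSS and 0.0312 in KO DSS (chr19:47720894-47720953, mm9). It was at least 2.03-fold higher after DSS in KO and 2.23-fold higher in KO DSS than in WT DSS. Neither call remained with normexp correction.

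Of the FACIT chains without a 2-fold ratio, Col12a1 read 0.566 (WT) and 0.481 (KO) in naive mice and 0.310 (WT) and 0.432 (KO) with DSS, and Col16a1 read 5.10, 4.44, 3.22 and 4.39. Both were lowest in WT DSS. Col8a2, a short-chain collagen, was lower after DSS in both genotypes, with 0.129, 0.0958, 0.0770 and 0.0543, and its relative Col8a1 read 0.259, 0.190, 0.142 and 0.187. A second, dimmer Col8a2 probe, well above background on 3 arrays, had log2 responses of 0.27 in WT and -1.09 in KO, so the probes disagree in WT. Col8a2 was 1 of 6 members below 0 in KO over WT after DSS, with Col4a3, Col4a4, Col9a1, Col9a2 and Col25a1. For Col25a1 the log2 ratio was -0.047 on the probe used, while dimmer probes that passed the filter had 0.93 and 0.35. With the mean of probes, 5 members were below 0. Col9a2 was level between the DSS pools, at 0.114 in WT and 0.113 in KO, and Col23a1, a transmembrane collagen, read 0.185, 0.144, 0.123 and 0.208. Col9a1, Col22a1, Col25a1 and Col28a1 had relative signals of at most 0.0318 on every array. The 8 genes that were not well above background on any array were Col2a1, Col10a1, Col11a1, Col11a2, Col13a1, Col19a1, Col6a6 and Col9a3. Their 10 probes read between 0.00233 and 0.0175, while the lowest maximum of a kept gene was 0.0201.

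Chains that are assembled into the same molecule were compared with each other. In KO over WT after DSS, the log2 ratios spanned 0.04 between Col4a1 and Col4a2, 0.20 between Col1a1 and Col1a2, 0.17 between Col4a5 and Col4a6, 0.28 among the type V chains and 0.43 among Col6a1, Col6a2 and Col6a3. For DSS over naive in KO the spans were 0.24 for Col4a1 and Col4a2, 0.38 for Col1a1 and Col1a2 and 0.53 for Col4a5 and Col4a6. They were 0.45 among the type V chains and 0.33 among Col6a1, Col6a2 and Col6a3. The SD between probes of the same gene was 0.102 in the first comparison and 0.148 in the second. Of the spans given here, only that of Col4a1 and Col4a2 in the first comparison lay below the SD of its comparison. A span is a range and not an SD, so spans slightly above it are not set apart from probe noise. Col4a3 and Col4a4, which share a type IV network, lay far apart between the DSS pools, with Col4a3 at a bound of -2.21 and Col4a4 at -0.17.

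An additive limma fit over all 22162 genes, with both genotypes as replicates of the treatment and both treatments as replicates of the genotype, called 0 genes at an adjusted p under 0.05 for DSS and 0 for genotype (0% of genes in each). It had 1 residual degree of freedom, and 4052 genes for DSS and 862 for genotype had an unadjusted p under 0.05, where 1108 would by chance. Of the collagens, 0 were called in either effect, with 7 at an unadjusted p under 0.05 for DSS and 2 for genotype. The lowest adjusted p among them was that of Col4a6 for DSS (limma, adjusted p = 0.205). With a trended, robust variance the fit called 7.27% of genes for DSS, among the collagens only Col4a6, which was lower (limma, adjusted p = 0.0141), and 0.0316% of genes for genotype with 0 collagens. Fitted on the 19328 genes well above background on all 4 arrays, the plain fit called 6.58% for DSS, among them Col4a6 (lower) and Col18a1 (higher). The Col4a6 calls rest on its brighter probe, while its other probe had a log2 ratio of DSS over naive of -0.12 in each genotype. A response that differs between the genotypes widens the error of the additive fit, and that difference itself has no test in this design.

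The enzymes and chaperones that mature collagen were counted beside the chains. Of 33 measured, 1 was at least 2-fold higher after DSS in WT and 7 in KO, and 3 were higher in KO than in WT after DSS, with 0 lower in each. The shares over all genes were 3.44%, 5.67% and 5.06%, and the count in WT is at that share. Lox, which cross-links collagen outside the cell, was not well above background in naive mice (0.0141 in WT and 0.0113 in KO) and read 0.0363 in WT DSS and 0.133 in KO DSS. It was at least 2.21-fold higher after DSS in WT, at least 8.68-fold higher in KO and 3.67-fold higher in KO DSS than in WT DSS. Plod2, a lysyl hydroxylase, read 0.200 (WT) and 0.143 (KO) in naive mice and 0.109 (WT) and 0.239 (KO) with DSS, 2.20-fold higher in KO DSS than in WT DSS. The procollagen peptidase Adamts14 was 2.38-fold higher in that comparison. The cross-linking enzyme Loxl2 was 2.86-fold higher after DSS in KO and 1.47-fold in WT. The medians of the list were 0.01 in WT, 0.65 in KO, -0.15 for naive KO over WT and 0.38 after DSS.

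The list for collagen breakdown also holds the inhibitors Timp1, Timp2 and Timp3. Its median was 1.48 for DSS over naive in KO and 0.99 for KO over WT after DSS. Of 9 measured, 2 were at least 2-fold higher after DSS in WT and 6 in KO, and 4 were higher in KO than in WT after DSS, where 3.44%, 5.67% and 5.06% of all genes were. Mmp13, a collagenase, read 0.0751 (WT) and 0.0712 (KO) in naive mice and 1.16 (WT) and 4.15 (KO) with DSS, a 3.59-fold difference between the DSS pools. Timp1, an inhibitor of these proteases that is part of each count above, read 0.280, 0.329, 2.68 and 6.29, a 2.34-fold difference. Mmp8, the neutrophil collagenase, was well above background only in KO DSS (0.183), at least 11.9-fold above KO naive and at least 14.7-fold above the dim reading of WT DSS. Mmp9, a gelatinase, was 3.01-fold higher in KO DSS than in WT DSS.

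Of 10 collagen receptors measured, 1 was at least 2-fold lower after DSS in WT, where 5.13% of all genes were, and 2 were at least 2-fold higher in KO than in WT after DSS, where 5.06% were. Itga10, an integrin subunit that binds collagen, read 0.157 (WT) and 0.151 (KO) in naive mice and 0.0612 (WT) and 0.124 (KO) with DSS, and was 1 of the 2. The other was Mrc2, a receptor that takes up collagen fragments, with a log2 ratio of 1.00.

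Laminins and other partners in basement membranes were lower after DSS in WT in 13 of 15 cases, where 51.6% of all genes were. Their median there was -0.58. After DSS, 13 of 15 were higher in KO than in WT, where 39.1% of all genes were, with a median of 0.65. Of the 15, 3 were at least 2-fold lower after DSS in WT, where 5.13% of all genes were. After DSS, 3 were at least 2-fold higher in KO than in WT, where 5.06% of all genes were. Lama5, the laminin chain of mature epithelial basement membranes, was 2.05-fold lower after DSS in WT, Lamb2 was 2.23-fold lower, and the proteoglycan Hspg2 (perlecan) was 2.09-fold lower. Lama1 read 0.316 (WT) and 0.298 (KO) in naive mice and 0.352 (WT) and 1.16 (KO) with DSS, 3.30-fold higher in KO than in WT after DSS, and Nid2, a linker between laminin and type IV collagen, was 2.18-fold higher there.

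Of 14 genes of the TGF-beta axis, a main inducer of collagen genes, 2 were at least 2-fold higher after DSS in each genotype and in KO over WT after DSS. The shares over all genes were 3.44% in WT, 5.67% in KO and 5.06% for KO over WT after DSS. The medians were -0.0021 in WT, 0.24 in KO and 0.31 for KO over WT after DSS, with 4 of 14 below 0 in each of the last 2. The gene with the largest ratios, the cytokine Il11, was 17.8-fold higher after DSS in WT, 48.5-fold higher in KO and 2.63-fold higher in KO DSS than in WT DSS. Tgfb1, a ligand, read 0.145 (WT) and 0.133 (KO) in naive mice and 0.177 (WT) and 0.246 (KO) with DSS, and neither Tgfb2 nor Tgfb3 reached 1.5-fold between any genotypes.

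**Figure D4:**
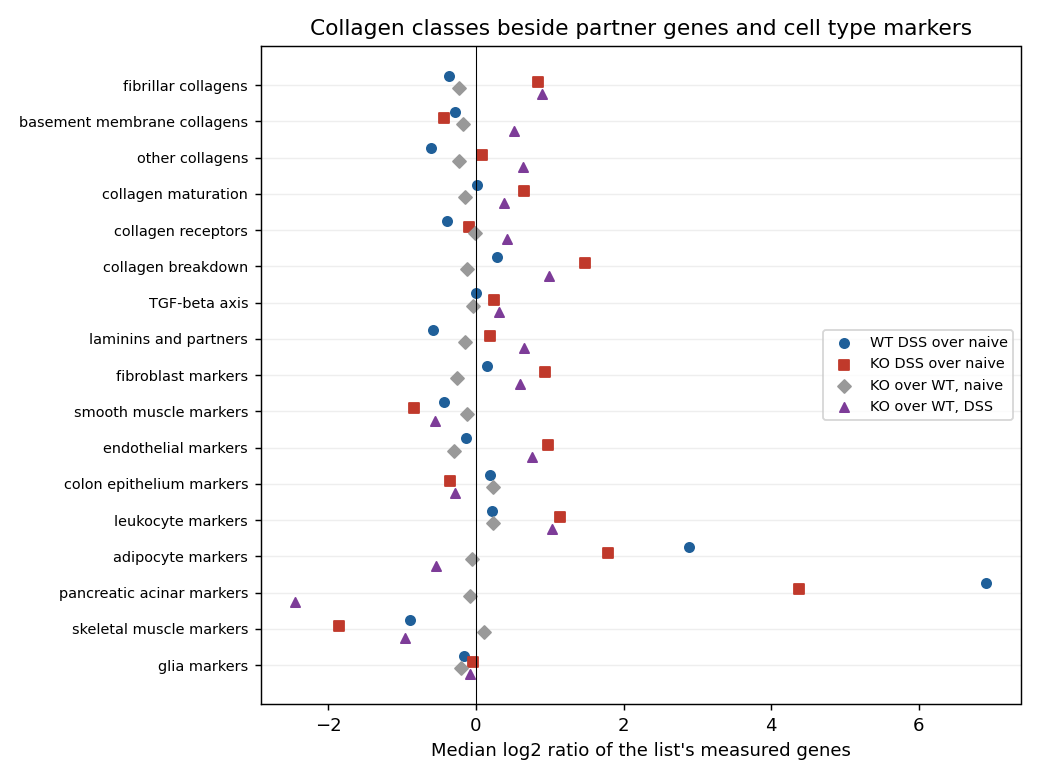
Median log2 ratio of each gene list in the 4 comparisons, with the collagen classes on top, partner genes below and cell type markers at the bottom. In KO over WT after DSS (triangles) fibrillar collagens stand at 0.90, fibroblast markers at 0.59, endothelial markers at 0.76 and smooth muscle markers at -0.55.

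Markers of the cells that make collagen moved with the chains in part, and the part of cell numbers in the collagen ratios was not tested. All 16 fibroblast markers were higher in KO than in WT after DSS, where 39.1% of all genes were, with a median of 0.59. Of the 16, 1, Pdpn, was past 2-fold, which is near the 5.06% of all genes that were. Their summed relative signal was 111 (WT) and 91.5 (KO) in naive mice and 123 (WT) and 173 (KO) with DSS, an order that the fibrillar sum shares apart from the WT pools. Dcn (decorin), which binds collagen fibres, read 30.9, 23.7, 39.4 and 63.9. After DSS the fibroblast list had 1 of 16 genes at least 2-fold higher in WT, where 3.44% of all genes were, and 8 in KO, where 5.67% were. Smooth muscle markers went the other way: all 10 were lower in KO than in WT after DSS, where 60.9% of all genes were. Their median was -0.55, with sums of 324, 317, 306 and 188, and 0 were at least 2-fold lower (against 2.2% of all genes). Endothelial markers had a median of 0.76 in that comparison, with sums of 8.62, 8.05, 8.71 and 10.8. Of the 12 colon epithelium markers, 11 were lower in KO than in WT after DSS, where 60.9% of all genes were. Their median was -0.28, and 1 of 12, Slc26a3, was at least 2-fold lower (against 2.2% of all genes). Their sums were 556, 655, 601 and 487, and all 12 were well above background in each pool.

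Markers of other tissues differed between the pools as well. Pancreatic acinar genes, 3 of 8 of which were well above background in each naive pool and 8 of 8 in each DSS pool, had summed signals of 7.67 (WT) and 6.77 (KO) in naive mice and 29.7 (WT) and 8.27 (KO) with DSS. Cela1 made up most of the naive sums, and read 7.42 (WT) and 6.54 (KO) in naive mice and 6.19 (WT) and 2.27 (KO) with DSS. After DSS 7 of the 8 acinar genes were at least 2-fold higher in WT (against 3.44% of all genes). In KO 6 were (against 5.67%), and 1, Cela1, was at least 2-fold lower (against 5%). All 8 acinar genes were at least 2-fold lower in KO than in WT after DSS, where 2.2% of all genes were. Adipocyte markers, 7 of 8 measured, had sums of 7.17, 7.60, 33.3 and 32.4. Skeletal muscle markers, 6 of 8 measured, had sums of 3.48, 3.65, 2.53 and 1.64. The 9 leukocyte markers had sums of 20.6, 22.0, 29.2 and 62.2. After DSS 5 of them were at least 2-fold higher in KO than in WT, where 5.06% of all genes were. The 6 glia markers had sums of 8.85, 8.60, 7.65 and 6.28. Whether the tissue taken with each pool affects the collagen ratios was not tested.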

How the data were processed

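Total RNA of 4 pools was labelled with Cy3 and hybridised to Agilent 4x44K arrays on 1 slide. The deposited scanner files give a processed intensity per spot, after background subtraction and detrending, made with Agilent Feature Extraction 11.5.1.1 according to the submitters' processing notes. A value table deposited for the series holds the same signal divided by the 75th percentile of the array (the ratio to it was within 1% for 100% of spots), and served as an alternative. Probe coordinates are mm9, per the file headers.

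Control spots (1377 per array) and outlier spots (129 to 136) were left out, and 0 spots were saturated. The log2 intensity was set relative to the array's 75th percentile. Spots of a probe were averaged. A probe needed 1 array well above background to be used, and the brightest such probe stood for its gene. Of 39377 probes, 27479 were named through RefSeq (GRCm38.p6, names only) by accession, 3539 by symbol and 401 by an older symbol, and 7958 kept the file's name. Each comparison is a log2 ratio of 2 arrays. A 2-fold call needs the brighter array well above background. Where the dimmer array is not, the lowest signal well above background there, or the dim reading if higher, gives a bound written as at least. Medians used measured values unless stated. The additive fit used lmFit and eBayes (limma 3.58.1, R 4.3.3, data.table version 1.17.8) with Benjamini-Hochberg adjustment over all genes, and was tested on simulated data.

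Values are given for the chains of types I, III, IV, V and VI, members past 2-fold in any comparison, the 3 with the largest difference of responses, and up to 4 genes of each partner list. Members named beyond that were chosen after their values were seen. The members and all lists were chosen with earlier results of these data known. The alternatives were median scaling, quantile normalization, normexp background correction (offset 50) with either scaling, a filter on all 4 arrays, no filter, the mean of probes, outlier spots kept, no bounds, 1.5-fold, and a trended, robust fit. Protein sequences and exon positions of probes are not analysed here. A member of the TGF-beta list is not reported here.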

Additional observations from a re-analysis of the deposited data

Results flagged for a closer look

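In 14 of the 29 collagens well above background on all 4 arrays, DSS went with a lower signal in the WT pool and a higher one in the KO pool, with a gap of at least 1 on the log2 scale. The share of all genes that pass this rule was not counted, so how unusual the collagen count is cannot be read from it. The difference between the genotypes was not tested, because 1 pool per group leaves no residual degree of freedom for it. As KO minus WT log2 response, the gap was 1.40 for Col1a1, 1.08 for Col1a2 and 1.18 for Col3a1. It was 1.35 for Col5a1, 1.02 for Col5a2 and 1.11 for Col5a3 among the type V chains. It was 1.22 for Col4a1 and 1.13 for Col4a2 in the type IV network. In the other types, it was 1.48 for Col14a1, 1.23 for Col20a1, 1.12 for Col23a1, 1.06 for Col6a2, 1.15 for Col6a3 and 1.13 for Col7a1. The WT response was close to 0 for Col3a1 (-0.016), Col5a3 (-0.058) and Col4a1 (-0.098), and the KO response was close to 0 for Col7a1 (0.0025) and Col20a1 (0.15), so opposite signs there rest on small values. A second Col6a2 probe was lower after DSS in both genotypes (log2 ratios of -0.42 in WT and -0.07 in KO). The opposite signs for Col6a2 therefore hold only for the brighter probe.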

How the results depend on the processing

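Each group is 1 array of pooled mice, so no array could be left out, no slide block could be fitted, and the number of arrays limits every value. No paired analysis was possible because the labels give no replicate numbers. Of 884 values of single genes under alternatives, 750 moved by less than the spread between probes, 134 moved by more and 0 changed sign in a called ratio. A change of sign was looked for only in ratios already past 2-fold, where it was unlikely. With the deposited series table, outlier spots kept or no filter, 100 of 100 values stayed within that spread. With the filter on all 4 arrays 84 of 84 did. These settings mostly keep the same signal and probe, so they could hardly move a value, and their values are part of the 750. Of 100 values each, 75 stayed under median scaling, 74 under quantile normalization and 91 with the mean of probes. With normexp correction, 53 of 100 stayed under quantile normalization and 73 under the 75th percentile. Keeping outlier spots and using the deposited series table changed no count or median beyond that spread. Median scaling, which moved the median of all genes for DSS over naive in WT from -0.02 to 0.12, gave WT medians of -0.32 (all collagens), -0.23 (fibrillar), -0.14 (basement membrane) and -0.47 (other), with 2 collagens higher instead of 1, and 5 of the 7 lower calls remained, without Col7a1 and Col20a1. Quantile normalization ended the lower call of Col20a1 in WT DSS and gave -0.27 for basement membrane collagens in KO DSS over naive. With normexp and quantile normalization, 2 collagens instead of 7 were lower in WT DSS, and the medians were -0.15 for basement membrane collagens in KO DSS, -0.14 for other collagens in naive KO over WT, and 0.57, 0.28 and 0.52 for all, basement membrane and other collagens in KO over WT after DSS. With normexp and the 75th percentile, the same count was 2, the naive median of other collagens was -0.065, all, basement membrane and other collagens stood at 0.52, 0.28 and 0.45 in KO over WT after DSS, and 4 collagens instead of 7 were higher in KO after DSS. Under the filter on all 4 arrays, 0 collagens were higher in WT DSS and 0 were lower in KO after DSS, the basement membrane median in KO DSS turned to 0.21, and the other collagens stood at 0.48 in KO over WT after DSS. Without a filter, the median of all collagens in KO DSS turned to -0.015, the fibrillar one was 0.60, other collagens stood at -0.13 in naive KO over WT, and all and other collagens at 0.66 and 0.47 after DSS. With the mean of probes, 1 collagen was lower in naive KO and other collagens stood at 0.48 in KO over WT after DSS. Without bounds, 2 collagens were higher in WT DSS and 1 was lower in KO DSS. At 1.5-fold, 2 collagens were higher and 15 lower in WT DSS, 12 higher and 3 lower in KO DSS, 1 higher and 1 lower in naive KO over WT, and 21 higher in KO over WT after DSS. The type IV chains alone had a median of 0.29 there. The limma fit called 1611 genes for DSS with a trended, robust variance and 1272 with the filter on all 4 arrays, and 7 for genotype with the trended, robust variance. The causes of these shifts were not tested.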

Other observations

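Probes outside the name rule also carry collagen sequence or collagen-like repeats. A contig probe, TC1608815, described in the files as similar to a bovine collagen alpha-1(I) chain, read 1.85 (WT) and 2.30 (KO) in naive mice and 2.38 (WT) and 1.71 (KO) with DSS. Its log2 ratio of KO over WT after DSS was -0.48, opposite in sign to that of Col1a1 (1.06). Cthrc1, a secreted protein with a short collagen repeat that is induced in injured tissue, read 0.0569, 0.0370, 0.0332 and 0.0630, with log2 responses to DSS of -0.78 in WT and 0.77 in KO. Emid2, now called Col26a1, has 2 probes, which read 0.0339, 0.0372, 0.0538 and 0.0365, and 0.0224, 0.0404, 0.0463 and 0.0227. Both were higher in WT DSS than in KO DSS, with log2 ratios of -0.56 and -1.03 for KO over WT. These genes were named after their values were seen.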
